A study of Mus musculus with 24 samples.

Results

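Of the 409130 distal regions of open chromatin in these hindlimb muscles, 1495 (0.365%) were called in at least 9 more adult peak lists than E18.5 lists, and they are the regions described here. They were found by merging the peaks of all 24 lists on chromosomes 1 to 19, X and Y, keeping the 459616 merged regions called in 2 or more lists, and taking those where the number of adult lists calling (of 12) minus the number of E18.5 lists calling (of 12) was 9 or more and no RefSeq gene start or end lay within 1 kb. A list called a region when at least 1 bp of a peak overlapped it. The regions were thus selected on the difference in calls between the stages, which is given as a description. A test of that difference over all regions is given below as background only and lends the set no support. By the same rule read the other way (E18.5 lists minus adult lists), 4279 distal regions were found, called here the mirror regions. Over all 459616 regions, gene ends included, 1657 (0.361%) had a difference of 9 or more in favour of the adult, of which 162 lay within 1 kb of a gene end.

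The lists come from ATAC-seq, in which the Tn5 transposase cuts and tags open DNA, on 4 muscles: soleus and vastus intermedius, which the study names as slow-biased, and gastrocnemius and vastus lateralis, which it names as fast-biased. The adult libraries came from 3 male FVB/NJ mice, an inbred strain, labelled P56 (postnatal day 56), although the protocol text gives an older age range, and the age was not settled here. The E18.5 (late foetal) libraries came from 3 litters of the same strain, each a pool of the muscles of male embryos of 1 litter. The 4 muscles with one replicate number were taken from a single adult mouse or a single litter, no allele or treatment is named in the labels, and each of the 8 groups holds 3 libraries. Nuclei were taken from undigested tissue, so every cell type of the muscle could contribute. In such bulk tissue a smaller share of nuclei of one type and less open chromatin per nucleus cannot be told apart.

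Skeletal muscle fibres are still maturing around birth. In the weeks that follow, embryonic and neonatal myosins give way to the adult slow and fast myosins, the sarcomere takes its adult isoforms, and fibres settle into oxidative or glycolytic metabolism. Distal regions of open chromatin, away from gene ends, are where enhancers lie, and some of them hold promoters of shorter transcripts that begin inside a gene. Fibre genes are known targets of MEF2, of the MyoD family, which bind E-boxes, and of TEAD factors, which bind the MCAT box.

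Among the 1495 regions, 17 (1.14%) overlapped the window around a RefSeq transcript start that lies inside a gene, away from its ends, in 16 genes of which 12 are protein-coding. The share was 0.534% of the other distal regions, 3.56% of the other distal regions called in 9 to 12 adult lists and 0.818% of the mirror regions, so it was higher than in the first and the last of these and lower than in the second. For 6 of these starts, the 200 bases just upstream are shown, 3 in regions called by every adult list and by no E18.5 list and 3 at metabolic or contractile genes that differ in their soleus calls. Only sequence around RefSeq starts was at hand. Asb5, an ankyrin repeat protein of the SOCS box family, has its internal start 21.1 kb from the gene start (chr8:54571239-54571438, plus strand), in a region called by 12 of 12 adult and 0 of 12 E18.5 lists. Synpo2l, a Z-disc protein, has one 3.78 kb in (chr14:20664575-20664774, minus strand), and Rpl3l, the striated-muscle paralogue of ribosomal protein Rpl3, one 4.86 kb in (chr17:24732485-24732684, plus strand), both also in regions called by 12 adult and 0 E18.5 lists. The region at the start inside Mylk4, a myosin light chain kinase, was called by 9 adult lists and 0 E18.5 lists, and the 3 adult lists without it were the 3 soleus lists (chr13:32783965-32784164, minus strand). That inside Pfkm, the muscle phosphofructokinase of glycolysis, was called by 10 adult lists, all but soleus 2 and 3, and by 1 E18.5 list (chr15:98111860-98112059, plus strand). That inside Acsl1, which activates long-chain fatty acids for oxidation, was called by 11 adult lists and 1 E18.5 list, and by all 3 adult soleus lists (chr8:46490766-46490965, plus strand). Sequences are from RefSeq on GRCm38.p6, the assembly of mm10, 5′ to 3′ along the gene's strand, and capitals mark the motifs searched for.
Asb5: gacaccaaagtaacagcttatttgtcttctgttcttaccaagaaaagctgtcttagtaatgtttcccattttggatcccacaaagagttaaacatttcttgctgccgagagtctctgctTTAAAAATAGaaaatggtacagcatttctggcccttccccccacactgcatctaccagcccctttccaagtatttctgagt
Synpo2l: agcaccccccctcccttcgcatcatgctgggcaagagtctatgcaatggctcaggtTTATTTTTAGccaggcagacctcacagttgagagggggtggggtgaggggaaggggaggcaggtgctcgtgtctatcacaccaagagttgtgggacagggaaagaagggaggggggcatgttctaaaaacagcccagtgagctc
Rpl3l: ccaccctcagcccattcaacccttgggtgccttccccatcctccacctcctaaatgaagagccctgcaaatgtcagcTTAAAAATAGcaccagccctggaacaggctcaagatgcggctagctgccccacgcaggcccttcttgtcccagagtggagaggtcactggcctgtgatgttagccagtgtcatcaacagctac
Mylk4: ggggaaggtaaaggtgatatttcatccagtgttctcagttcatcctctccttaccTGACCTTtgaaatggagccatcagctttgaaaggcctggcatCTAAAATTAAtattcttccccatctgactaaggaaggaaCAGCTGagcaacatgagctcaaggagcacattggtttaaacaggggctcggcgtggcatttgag
Pfkm: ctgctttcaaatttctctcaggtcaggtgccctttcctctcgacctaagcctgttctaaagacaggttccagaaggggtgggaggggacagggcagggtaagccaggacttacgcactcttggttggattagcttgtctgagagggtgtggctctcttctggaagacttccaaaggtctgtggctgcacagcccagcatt
Acsl1: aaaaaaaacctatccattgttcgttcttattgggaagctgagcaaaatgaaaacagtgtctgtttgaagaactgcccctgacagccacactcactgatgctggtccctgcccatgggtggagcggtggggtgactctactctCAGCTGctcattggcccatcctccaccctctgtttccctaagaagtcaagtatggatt

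Motifs were searched on both strands in the 200 upstream bases of 13 such starts of the 12 protein-coding genes. The myogenic E-box CAGCTG stood in 4 of the 13 windows (Acsl1, Mlip, Mylk4 and Rbfox1), against 10.9% of all 32851 windows of that length upstream of RefSeq starts. The MCAT box CATTCC stood in 3 (Mlip, Bcl6 and Shroom4), against 10.1%. The strict MEF2 box, with both end bases fixed, stood in 0, against 2.49%, while the wider MEF2 box stood in 4 (Asb5, Mylk4, Synpo2l and Rpl3l), against 2.29%. The wider form was chosen after the sequences had been read, so it supports nothing. The nuclear receptor motif AAGGTCA stood in 1 window (Mylk4, 3.18% of all windows). The clock E-box CACGTG, the NFI motif TTGGCA and the steroid receptor palindrome ACANNNTGT stood in 0, against 5.26%, 9.56% and 4.51% of all windows. A match is a description of letters and not a site of binding.

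The adult and E18.5 lists split the 1495 regions as the rule requires, and the rule left room only in how full and how clean the split was. All 12 adult lists called 500 of the regions (33.4%), 11 lists called 399, 10 lists 355 and 9 lists 241. No E18.5 list called 618 of them (41.3%), 1 list called 459, 2 lists 265 and 3 lists 153. In 96 regions all 12 adult lists and 0 E18.5 lists called a peak. Just inside the threshold, at a difference of 9, stood 725 regions, and just outside it, at a difference of 8, stood 1056. By Fisher's exact test on the 12 adult and 12 E18.5 lists, 2631 of 170267 regions that could pass (1.55%) were called more often in the adult at an adjusted p under 0.05, and the 1495 all fell among them, as a difference of 9 obliges them to. The test takes the 4 libraries of a mouse or litter as independent, which they are not, so its p-values are too small.

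The adult gastrocnemius libraries called 98.1%, 93.2% and 96.0% of the regions, and the adult vastus lateralis libraries 92.2%, 91.2% and 95.7%. Adult vastus intermedius libraries called 95.5%, 95.3% and 92.3%. Adult soleus libraries called 89.0%, 67.6% and 71.4%, and each of the 3 was below every library of the other adult muscles. At E18.5 the share was between 3.34% (soleus, litter 3) and 19.2% (gastrocnemius, litter 1), with a median of 7.02% over the 12 libraries. The stages did not overlap, which the rule fixes. List length, the only measure of depth at hand, ran from 115333 to 228137 peaks. The adult soleus list with 67.6% was one of the longest at 211875 peaks, and the shortest list of all, adult vastus intermedius 1, called 95.5%.

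**Figure D1:**
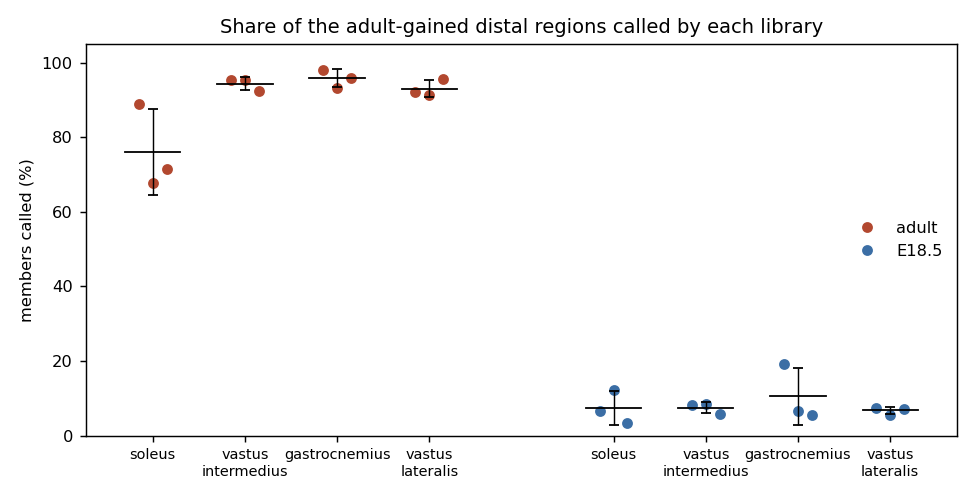
Share of the 1495 regions called by each library, in percent, by muscle, with adult libraries left and E18.5 libraries right. Points are libraries, horizontal lines are means and bars are SD (n = 3); adult soleus, at 67.6% to 89.0%, lies below the other adult muscles, and 1 E18.5 gastrocnemius library, at 19.2%, lies above the other E18.5 libraries.

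The peaks that called these regions were wider in the adult lists than in the E18.5 lists. The median width of the peaks that called them was 470 to 743 bp in the adult libraries (median 628 bp) and 285 to 398.5 bp in the E18.5 libraries (median 308 bp). In the other distal regions called in 9 to 12 adult lists the medians were 537 to 668 bp in the adult and 563 to 749 bp at E18.5, so E18.5 peaks were not narrower there. In the mirror regions the order was turned round, with medians of 308 to 385 bp in the adult and 441 to 708 bp at E18.5. Peak width comes from the same lists as the rule, and no test was made.

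To see calls that the rule had not used, it was applied without 1 adult mouse or 1 litter at a time, keeping the difference at 0.75 of the libraries calling. The 4 libraries of the left-out adult mouse then called 51.4% to 90.8% of the regions chosen without them, against 17.9% to 31.0% of all distal regions in the same libraries. The 2 lowest shares, 51.4% and 56.5%, were soleus libraries of adults 2 and 3. Adult libraries called 80.0% to 94.7% of the other distal regions with 9 to 12 adult calls, with the library's own call counted. High shares in a left-out adult library are thus not particular to the adult-gained regions. Libraries of the left-out litters called 6.66% to 37.1% of the regions, against 19.4% to 37.1% of all distal regions. Only the gastrocnemius library of litter 1 called more of the chosen regions (37.1%) than of all distal regions (35.6%). The 6 repeats gave 1337 to 1841 regions, of which 1172 to 1343 were among the 1495.

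The regions lay inside genes more often than the rest. Of the 1495, 1034 (69.2%) lay inside a protein-coding or lncRNA gene, against 57.0% of the other distal regions, 59.3% of the other distal regions called in 9 to 12 adult lists and 53.0% of the mirror regions. Exons and introns were not told apart, because the gene table used gives only starts and ends. Their median width was 1327 bp, and the median distance to the nearest gene end was 15.4 kb, with 87 (5.82%) farther than 100 kb. Within 10 kb of another of the regions lay 210 (14.05%), and 14.3% of the mirror regions lay as near to each other. By chromosome the regions made up between 0% of the distal regions on Y and 0.505% on chromosome 18, with 0.230% on X.

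Of the adult muscles, soleus lacked the calls most often. The rule fixed only the total over 12 adult lists, not its spread over muscles, so that spread could be examined. The 1495 regions had 1832 missed adult calls, of which soleus had 1076 (58.7%), vastus lateralis 312 (17.0%), vastus intermedius 254 (13.9%) and gastrocnemius 190 (10.4%). In the other distal regions called in 9 to 12 adult lists, soleus held 38.7% of the missed calls, vastus intermedius 28.6%, gastrocnemius 16.7% and vastus lateralis 16.0%. Within soleus, the libraries of adults 2 and 3 missed 484 and 428 of the 1495, and that of adult 1 missed 164. Their shares of the missed calls were 26.4%, 23.4% and 8.95%, against 13.7%, 15.1% and 9.90% in the other regions. The larger soleus share in the 1495 thus came from 2 libraries, and adult 1 also differs from adults 2 and 3 in date. All 3 soleus lists called 735 of the 1495 (49.2%), while all 3 lists called 1314 in gastrocnemius, 1265 in vastus intermedius and 1247 in vastus lateralis.

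**Figure D2:**
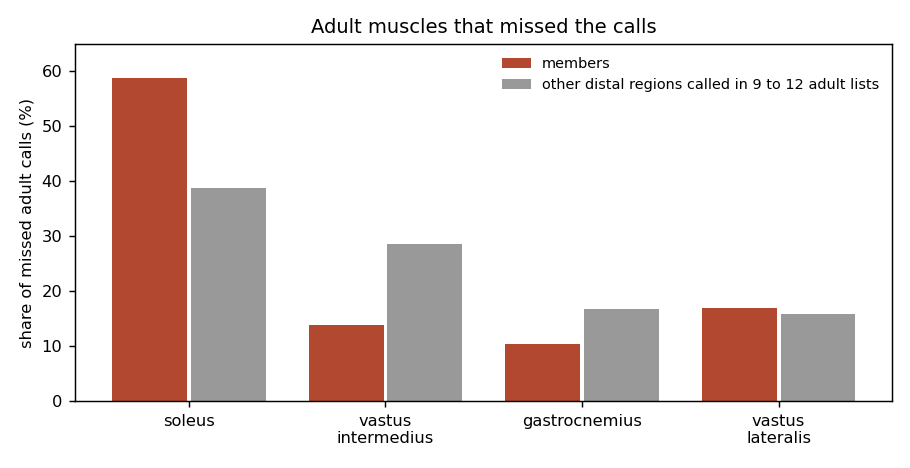
Share of the missed adult calls, in percent, that fell in each adult muscle, for the 1495 regions (red) and for the other distal regions called in 9 to 12 adult lists (grey). Soleus held 58.7% of the missed calls of the 1495 regions and 38.7% of those of the other regions.

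For each region a two-sided Fisher's exact test set the 3 libraries of one adult muscle against the 9 of the other 3 muscles, with Benjamini-Hochberg adjustment over the 254924 regions with enough calls to reach 0.05. No region of the 459616 passed the adjusted threshold for soleus, where 3730 were lower and 9910 higher at an unadjusted p under 0.05, and the smallest adjusted p among the 1495 was 0.850. At that unadjusted threshold soleus was lower in 183 of the 596 regions that could reach it (30.7%), against 1.46% of all regions tested and 9.53% of the other distal regions with 9 or 10 adult calls. For each muscle, a region with so many adult calls could reach 0.05 only as lower, so the direction was fixed beforehand. All regions tested include those with fewer adult calls, so only the other distal regions with 9 or 10 calls are a matched background. With the animal as a block (an exact test stratified by mouse), soleus was lower in 45, and again no region passed the adjusted threshold. Under the block a region of the 1495 could reach 0.05 only with 0 of 3 calls in 1 muscle and 9 of 9 elsewhere. These 45 are thus the regions of that pattern given below. Fisher's test of 3 against 9 libraries could give no p below 0.00455. With so high a floor, the lack of regions past adjustment over 254924 regions shows little. By the test without the block, soleus was lower in 86 without adult 2 and in 97 without adult 3. In vastus lateralis 32 of the 596 (5.37%) were lower, against 0.306% of all regions tested and 1.37% of the other distal regions with 9 or 10 adult calls. In vastus intermedius 9 (1.51%) were lower, against 0.871% and 4.06%, and in gastrocnemius 2 (0.336%), against 0.255% and 1.14%, so both shares were below those of the other distal regions with as many adult calls. With the block the vastus lateralis count was 8, and without adult 1 it was 15, while no region passed the adjusted threshold for any of these 3 muscles (smallest adjusted p of the 1495 in vastus lateralis 1). Slow-biased and fast-biased libraries (6 against 6) gave 0 regions past the adjusted threshold in the adult and 0 at E18.5, with 227 higher and 1385 lower in slow-biased muscle in the adult, and 117 higher and 295 lower at E18.5, at an unadjusted p under 0.05. None of the 1495 could reach 0.05 there, since they had too many adult calls or too few E18.5 calls (smallest possible p 0.182).

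All 9 other adult libraries and none of the 3 soleus libraries called 45 of the 241 regions with 9 adult calls (18.7%), against 0.137% of all regions tested and 3.35% of the other distal regions with 9 adult calls. Among these 45 were regions inside Mylk4, inside Pfkm and inside Mlip, which encodes a muscle protein that binds lamin, and inside Ppp1r12b, a regulatory subunit of myosin phosphatase. Others lay inside Sgk1, a kinase induced by glucocorticoids, and Rbfox1, a splicing regulator, and near Aldoa, the muscle aldolase. These genes were picked after their values were seen, apart from those that the lists and loci below name. The matching pattern without vastus lateralis was found in 8 of the 241 regions (3.32%), one of them inside Me3, the mitochondrial malic enzyme, against 0.0169% of all regions tested and 0.407% of the other distal regions with 9 adult calls. It was found in 0 of the 241 for vastus intermedius, against 0.0322% and 1.00%, and in 0 for gastrocnemius, against 0.00785% and 0.176%.

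Regions at genes of energy metabolism were called unevenly over the adult muscles. The list of glycolysis and glycogen genes held 16 of the regions in the loci (gene body and 10 kb on each side) of 11 of its 23 genes. Adult soleus libraries called 11, 8 and 9 of the 16, while the 9 other adult libraries called 15 or 16 each, so soleus did not overlap the other muscles. That lack of overlap is not particular to this list. Over all 1495 regions soleus libraries called 67.6% to 89.0% and the other adult libraries 91.2% to 98.1%. E18.5 libraries called 0 to 2. Of the 23 adult calls that these 16 regions missed, 20 (87.0%) were in soleus, against the 58.7% over all 1495. Soleus called 0 of 3 for 3 of the 16, among them a region in the Pfkm locus and the one in the Aldoa locus, and 1 of 3 for regions of Phkg1 and Phkb, subunits of phosphorylase kinase, of Gys1, muscle glycogen synthase, and for the other Pfkm region. It called 3 of 3 for both other regions of Gys1, for Ugp2, for Hk2, which phosphorylates glucose, and for both of Gbe1, the glycogen branching enzyme. The list of oxidative genes held 14 of the regions in the loci of 9 of its 26 genes, and adult soleus libraries called 13, 14 and 13 of them. Adult vastus lateralis libraries called 12, 10 and 11, the lowest of the 4 muscles, against 13 or 14 in each gastrocnemius and vastus intermedius library. Regions of Cd36, the fatty acid transporter, Pdk4, which restrains pyruvate oxidation, and Esrrg, an oestrogen-related receptor, each had 1 with 3 of 3 soleus calls and 1 of 3 vastus lateralis calls, while the other Pdk4 region had 1 of 3 soleus calls and 3 of 3 in vastus lateralis. All gene lists, here and below, were chosen with earlier results of these data known. Their shares describe these libraries and cannot support an excess over all distal regions, and no test was made of them.

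With a call at 1 bp of overlap, the scaffold of the sarcomere held more of the regions than any other program list. Of 674 distal regions in the loci of 22 sarcomere and Z-disc scaffold genes, 46 (6.82%) were among the 1495, against 0.365% of all distal regions, and 3 were mirror regions. Of these, 26 lay in the gene of titin, Ttn, the giant spring of the sarcomere (chromosome 2, 76703980 to 76982557), which had 121 distal regions, so that 21.5% of them met the rule. Without Ttn the list had 20 of 553 (3.62%). These counts rest on the 1 bp call: with a peak covering at least 50% of a region, 5 regions were left on the list and 1 in Ttn. The 26 regions of Ttn ran over 243 kb of its 279 kb. Per library 15 to 26 of them were called in the adult, with a median of 24.5, and 0 to 7 at E18.5, with a median of 1. In the adult, soleus called 24, 15 and 16, vastus intermedius 25, 23 and 19, gastrocnemius 25, 23 and 25, and vastus lateralis 26, 25 and 25. The 2 lowest adult libraries were soleus, and the library with 7 calls at E18.5 was gastrocnemius of litter 1. A single Ttn region, at 76763451 to 76765417, was called in 12 adult and 0 E18.5 lists.

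**Figure D3:**
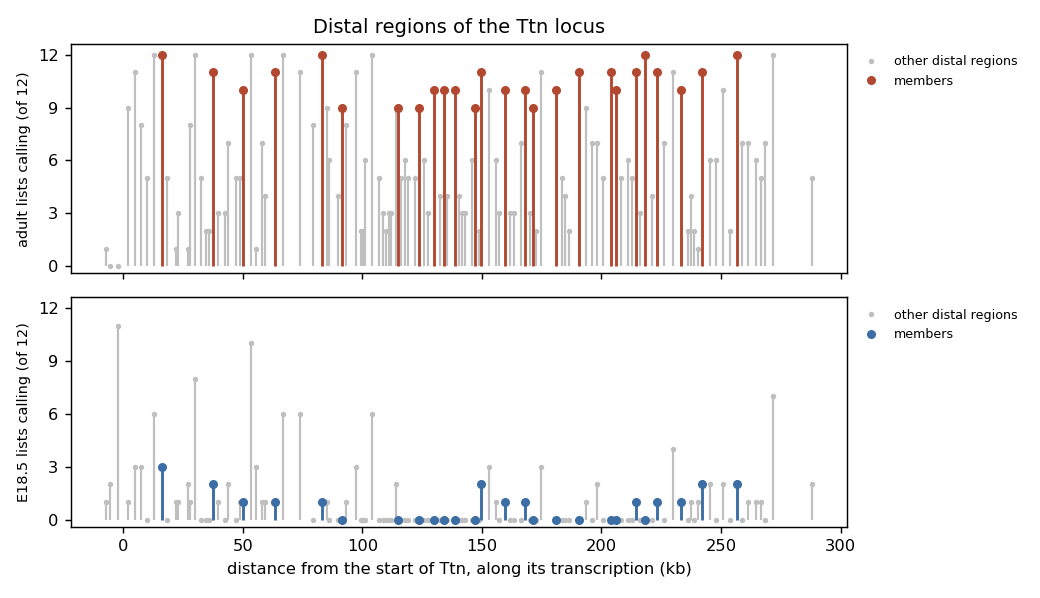
Distal regions of the Ttn locus by distance from the gene's start (kb), with the number of lists that called each, adult above and E18.5 below (0 to 12). The 26 coloured regions lie along most of the gene, with 9 to 12 adult and 0 to 3 E18.5 lists, among the other distal regions in grey.

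The other scaffold genes had few regions each. Neb (nebulin, which runs along the thin filament) had 4 of 79 distal regions and Pdlim5 (a Z-disc LIM protein) had 3 of 49. Myot (myotilin) and Nrap had 2 of 11 and 2 of 31, Mypn had 2 of 45, and Myom1 (myomesin, of the M-band) had 2 of 50. Each adult library called 3 or 4 of the 4 Neb regions, and each E18.5 library 0 or 1.

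The list named fast contractile held 10 of the regions among 155 distal regions (6.45%) and the list named slow contractile 2 among 146 (1.37%). Not all genes of the first list are particular to fast fibres: Mybpc1, the slow-type myosin binding protein C, had 3 of the 10 (of 30 distal regions), and Smpx, a small protein of the costamere, 2 (of 4). Without these genes the fast list had 5 of 121 (4.13%), and with Mybpc1 the slow list had 5 of 176 (2.84%), a grouping chosen after seeing the data. The fast list region counted for Myoz1 lay outside that gene, within its 10 kb flank, and inside Synpo2l. With a peak covering at least 50% of a region the fast list as it stood had 3. Myl1, the fast alkali light chain of myosin, had 2 of 14. In the first of its regions (chromosome 1, 66934896 to 66935859) 12 adult and 0 E18.5 lists called a peak, and in the second (66939727 to 66940723) 12 adult and 2 E18.5 lists. Myh4, the fastest myosin heavy chain, had 1 of 12 (chromosome 11, 67253000 to 67255947), called in 10 adult lists and 1 E18.5 list, and the adult lists without it were soleus 1 and 3. Myh1, another fast myosin, had 1 of 12, 1.40 kb beyond its gene end and called in 9 adult and 0 E18.5 lists. Myh2, the type IIa myosin, Ckm, muscle creatine kinase, and Tnni2, fast troponin I, had 0 of 18, 0 of 5 and 0 of 4. On the slow list Myl2 and Tnni1, the slow light chain and slow troponin I, had 1 each.

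**Figure D4:**
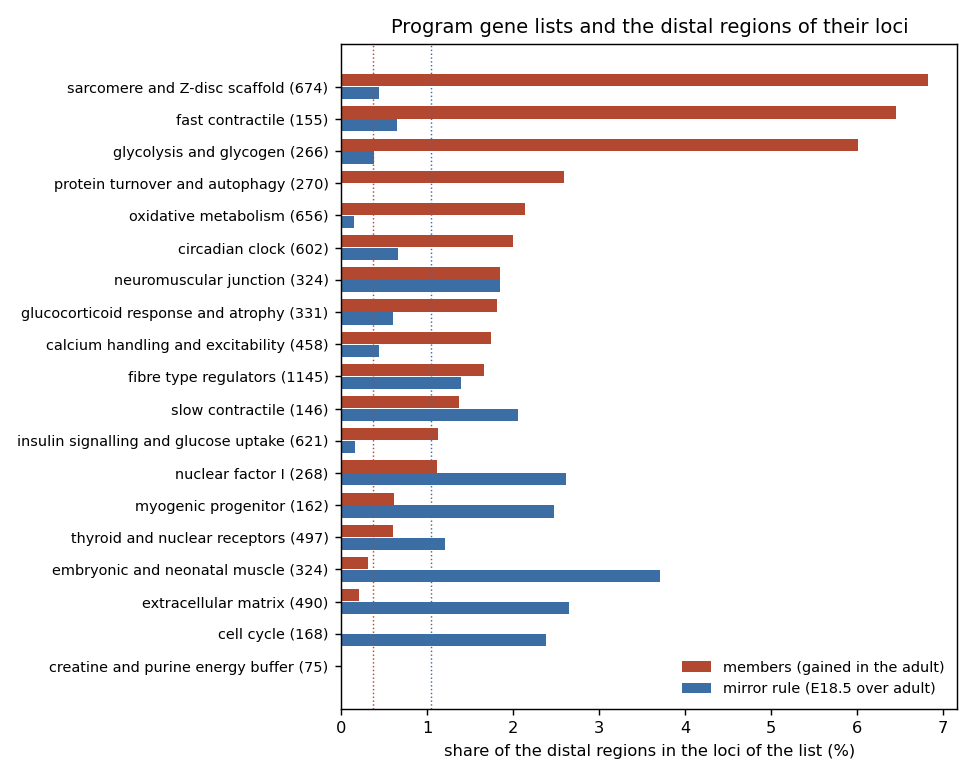
Share of the distal regions in the loci of each of the 19 program gene lists, in percent, that are among the 1495 regions (red) or the mirror regions (blue), with the number of distal regions in brackets. Dotted lines are the shares over all distal regions, 0.365% and 1.05%; sarcomere, fast contractile and glycolysis lists have the highest red bars, and embryonic muscle, extracellular matrix and nuclear factor I have the highest blue bars.

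Over all distal regions the share was 0.365% for the 1495 and 1.05% for the mirror regions. Some lists of foetal and growth genes were below the first share and above the second. Embryonic and neonatal muscle genes had 1 of 324 (0.309%) and 12 mirror regions (3.70%), extracellular matrix genes 1 of 490 (0.204%) and 13 mirror regions (2.65%), and cell cycle genes 0 of 168 and 4 mirror regions (2.38%). Other lists were above both shares. Nuclear factor I genes had 3 of 268 (1.12%), all in Nfix, a regulator of the switch from foetal to adult muscle, and 7 mirror regions (2.61%), none of them in the Nfix locus. Myogenic progenitor genes had 1 of 162 (0.617%) and 4 mirror regions (2.47%), and thyroid and nuclear receptor genes 3 of 497 (0.604%) and 6 mirror regions (1.21%). The slow contractile list had 3 mirror regions (2.05%). The creatine list had 0 of 75 and 0 mirror regions. Over all 19 program lists, 159 of 7540 distal regions (2.11%) were among the 1495 and 85 (1.13%) were mirror regions.

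Neuromuscular junction genes held 6 of 324 (1.85%) and the same number of mirror regions, where the shares over all distal regions were 0.365% and 1.05%. Musk, the kinase that organises the junction, had 2, and Lrp4, the agrin receptor, and Dok7, which activates Musk, had 1 each, called in 12 adult and 0 E18.5 lists. Calcium handling genes held 8 of 458 (1.75%), with 2 in Jph1, which joins the tubule to the calcium store, one of them called in 12 adult and 0 E18.5 lists (chromosome 1, 17040988 to 17042812). Protein turnover genes held 7 of 270 (2.59%), of which 5 lay in Usp13, a deubiquitinase. All 12 adult libraries called 4 or 5 of the Usp13 regions, soleus called 5 in each, and E18.5 libraries called 0 or 1. Insulin signalling genes held 7 of 621 (1.13%), with 3 in Tbc1d1, which controls the movement of glucose transporters.

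Regulators of adult fibres had regions in several loci. The fibre type regulators held 19 of 1145 distal regions (1.66%) and 16 mirror regions (1.40%). Over all distal regions these shares were 0.365% and 1.05%. Sox6, a repressor of slow genes, had 3 of 106, and 1 of them was called in 1 of 3 soleus libraries and in all 9 others. Tead1, which binds the MCAT box, had 2 of 109, and the region at 112741128 to 112742442 on chromosome 7 was called in 12 adult and 0 E18.5 lists. Nfix had 3 of 40 and Tbx15, a regulator of glycolytic fibres, 3 of 33. Ppargc1a and Esrrg belong to the oxidative list and Clic5 to none of the lists, so their regions are not among these 19. Ppargc1a, the coactivator of mitochondrial genes, had 2 of 137, with 12 adult lists in both and 0 and 1 E18.5 lists. Esrrg had 3 of 155, all with 3 of 3 soleus calls. Clic5, a chloride intracellular channel protein, had 3 of 57, and the region at 44214643 to 44216065 on chromosome 17 was called in 12 adult and 0 E18.5 lists.

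The clock list held 12 of 602 (1.99%), of which 8 lay in Rora, a nuclear receptor of the clock and of metabolism. Rora had 267 distal regions, and its 8 regions spread over its 735 kb. Adult libraries called 5 to 8 of the 8 (soleus 8, 5 and 5; vastus intermedius and gastrocnemius 8 in each; vastus lateralis 8, 6 and 8), and E18.5 libraries called 0 to 2. Tef had 2 and Per2 had 1. The glucocorticoid list held 6 of 331 (1.81%), with 3 in Zbtb16, a zinc finger factor induced by glucocorticoids, 1 of which (chromosome 9, 48826131 to 48827042) was called in 12 adult and 0 E18.5 lists. Fbxo32, an atrophy ubiquitin ligase, Tsc22d3 and Bcl6 had 1 each. Time of day at collection is not given in the sources used here.

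**Figure D5:**
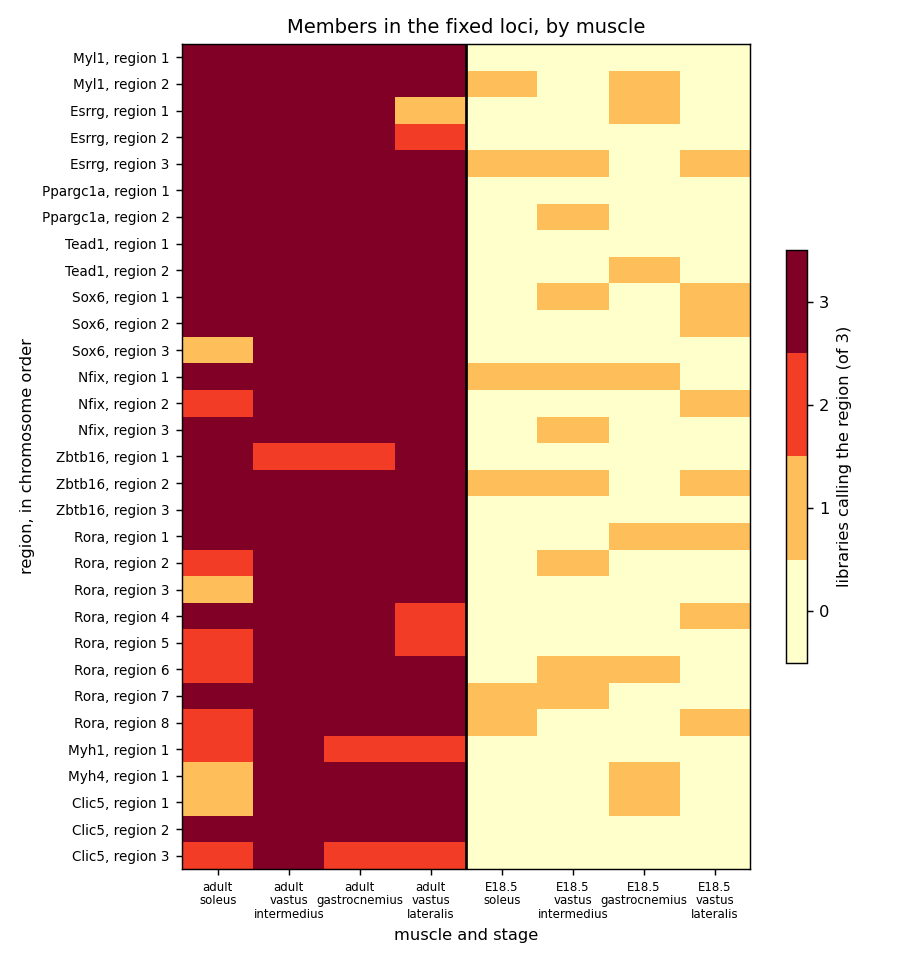
Number of the 3 libraries of each muscle and stage that called each of the 31 regions in 14 set loci (Ckm, Tnni2 and Myh2 had none). Adult columns are left and E18.5 columns right. Most adult cells are at 3, and no E18.5 cell is above 1. In the adult, soleus is at 1 for a region each of Sox6, Rora, Myh4 and Clic5, and vastus lateralis is at 1 for a region of Esrrg.

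Outside the lists, some genes, long and short, had several of the regions. Of 34614 genes, 1230 (3.55%) had at least 1 region in their locus, 205 had 2 or more and 68 had 3 or more. After Ttn came Rbfox1 with 9 of 187 distal regions, 8 of them within 73 kb, Kcnma1, a calcium-activated potassium channel, with 7 of 195, and Pde4d, a phosphodiesterase of cyclic AMP, with 7 of 270. Adult libraries called 2 to 9 of the Rbfox1 regions, with soleus at 8, 2 and 6, against 8 or 9 in every other adult library. Mlip had 6 of 36 (16.7%), all 6 within 97 kb, and soleus called 4, 4 and 2, against 5 or 6 in every other adult library. Asb5 had 4 of 12 (33.3%), and the E18.5 libraries called 0 of the 4. Slc9a2, a sodium-proton exchanger, had 5 of 30, and Optn, an autophagy receptor, 4 of 25. A stretch of 95 kb on chromosome 19 around Ppp1r3c, a subunit that brings a phosphatase to glycogen, held 6 of 23 distal regions. Of the 1230 genes, 213 (17.3%) also had a mirror region, as did 8.36% of all genes, and longer genes have more regions of any kind.

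Loci of markers of other cell types held a share of the regions near that over all distal regions. Lists of endothelium, pericytes and smooth muscle, fibro-adipogenic cells, immune cells, adipocytes, Schwann cells and neurons, satellite cells, tendon, cartilage and bone, and erythroid cells held 6 of 1366 distal regions (0.439%), against 0.365% over all distal regions, and 8 mirror regions (0.586%). The 6 lay in the loci of Sox18, Egfl7 and Flt1 of endothelium, Des and Myh11 of pericytes and smooth muscle, and Sdc4 of satellite cells, and the other 7 lists had 0. Des is also a fibre gene. Muscle fibre markers (Acta1, Ckm, Myh4, Mb and Ttn) had peaks within 1 kb of a gene end for 4 or 5 of the 5 genes in every adult library and for 3 to 5 in every E18.5 library. Endothelium markers had them for 9 to 14 of 14 genes in the adult and 10 to 14 at E18.5, and cartilage and bone markers for 3 to 6 of 9 genes in the adult and 6 or 7 at E18.5. Adult medians were also below those at E18.5 for satellite cells (7.5 against 9), pericytes (9.5 against 11) and fibro-adipogenic cells (10 against 11). The same held for Schwann cells (8 against 9), immune cells (7.5 against 8) and erythroid cells (4.5 against 5). Medians were equal for adipocytes and tendon, and higher in the adult for muscle fibre (5 against 4) and endothelium (13.5 against 13). The part of cell mixture in the results was not tested.

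How firmly the set can be drawn depends on what counts as a call. When a peak had to cover at least 50% of a region in place of 1 bp, 586 regions met the rule, and 244 of the 1495 overlapped one of them. The list counts fell with it, to 7 for glycolysis, 7 for oxidative genes, 3 for calcium handling and 0 for insulin signalling, against 16, 14, 8 and 7 with a call at 1 bp. With the same number of peaks drawn at random from each list, 390 regions met the rule and 316 of the 1495 overlapped one of them, and with the widest peaks of each list in equal number 1641 met it, and 1081 of the 1495 overlapped one. Without the soleus libraries the rule gave 2255 regions, of which 1341 of the 1495 were part. Without the E18.5 gastrocnemius library of litter 1 it gave 1232. The libraries of a mouse or litter are not independent samples. The deposited lists carry 2 dates in the adult and 2 at E18.5, with adult 1 and litter 1 apart from the others of their stage, and 0 dates in both stages, so the stages cannot be told apart from the dates.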

How the data were processed

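ATAC-seq was done on 4 hindlimb muscles of 3 adult mice and 3 E18.5 litters. The authors deposited 1 peak list per library with chromosome, start and end only (other values, with no score, count or signal) on mm10, called per library, as the separate files show. The submitters' processing notes name MACS2 2.1.1 and bedtools 2.25.0, besides Bowtie2 2.4.4 and Trimmomatic 0.39.0. They name FastQC 0.11.5, SAMtools 1.14.0 and Picard too. Thresholds, transposase read shift and depth were not given in the sources used here. A region without a peak in a list may still be open, and list length was the only measure of depth.

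Peaks of 24 lists were merged (touching peaks joined) into 930761 regions with Python 3.11.15, numpy 2.4.6 and pandas 2.3.3. Gene ends came from 34614 protein-coding and lncRNA genes of RefSeq, GRCm38.p6. Calls were compared by Fisher's exact test (two-sided) with scipy 1.17.1, adjusted by Benjamini-Hochberg at 0.05, and, within animals, by an exact test stratified by mouse or litter. The numbers pair the libraries because all muscles of a number come from 1 mouse or litter, per the labels' protocols. The code was tested on simulated calls. Named were regions with 12 adult and 0 E18.5 lists in listed loci, the 15 genes with most regions, up to 4 genes per list, 5 windows of 100 kb and 14 set loci. All 436 names of the 30 lists matched the annotation. Members and lists were chosen with earlier results of these data known. Alternatives were other call overlaps, list lengths, widths, chromosomes, differences, distances, flanks and left-out replicates.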

Additional observations from a re-analysis of the deposited data

Results flagged for a closer look

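The E18.5 gastrocnemius library of litter 1 called 19.2% of the 1495 regions, far above the other 5 fast-biased E18.5 libraries, which called 5.62% to 7.42%. Its list is long, at 211354 peaks, yet the longest E18.5 list, soleus of litter 2 with 228137 peaks, called 12.2%. The adult gastrocnemius library of adult 2 called 23 of the 26 Ttn regions, while the other 5 fast-biased adult libraries called 25 or 26. Each library was compared with the others of its stage and fibre bias, in 4 groups of 6 libraries for each of 2 values, and chance marks about 1 in 20 such comparisons. The part of list length and library quality in these values was not tested.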

How the results depend on the processing

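With a peak covering at least 50% of a region, the set had 586 regions and 52 in the loci of the program lists (159 before), the E18.5 libraries called a median of 2.39% of it, and 1632 regions passed the test as higher in the adult, while soleus was lower in 140, vastus intermedius in 0 and vastus lateralis in 10 of the regions at an unadjusted p under 0.05. With equal numbers of peaks drawn at random the set had 390 regions, 71.8% of them inside genes, 326 regions passed as higher in the adult and 768 as higher at E18.5, and soleus was lower in 20, vastus intermedius in 0, gastrocnemius in 5 and vastus lateralis in 14. With the widest peaks, vastus intermedius was lower in 3 and gastrocnemius in 1. With the first peaks of each list, an alternative chosen after seeing the data, 4105 passed as higher in the adult and soleus was lower in 297. Differences of at least 8, 10 and 12 lists gave 2551, 770 and 96 regions, with 66.7% inside genes at 12. Without the soleus libraries, also chosen after seeing the data, the set had 2255.

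With the replicate block soleus was lower in 45, vastus intermedius in 0, gastrocnemius in 0 and vastus lateralis in 8. No paired analysis was possible for adult against E18.5 because mice and litters share only a number. Leaving out each mouse or litter gave 1337 to 1841 regions, with 1353 to 2035 higher in the adult and 2810 to 8761 higher at E18.5. Without each mouse soleus was lower in 86 to 131, vastus intermedius in 5 to 9, gastrocnemius in 2 to 7 and vastus lateralis in 15 to 26. Of 191 values recomputed under the alternatives, 152 stayed within 1.5 times of the reported count or within its spread. Of 123 further counts for single lists and Ttn 94 stayed within 1.5 times and 29 did not. A count of 0 that remained 0 was taken as having stayed. Among these were the muscle tests with no region past adjustment, whose zeros show little, so the tally is no measure of stability. The cause of the changes in the other values was not tested. The motif search over whole regions and its 500 bp window were not run, as no genome sequence was at hand. Calls are yes or no, so depth limits what a missed call can show.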
